A study of Mus musculus with 12 samples.

Results

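Genes of DNA replication and repair were followed across mouse thymocytes of the CD4+CD8+ double-positive stage and the CD4 single-positive stage, in mice with or without a transgene for the antigen of their T cell receptor. The members were chosen by gene symbol. A name pattern took the families Mcm, Orc, Gins, Pol, Prim, Rfc, Fanc, Brca, Brip, Rad, Xrcc, Ercc, Msh, Lig and Top with Exo1 and Blm, and matched 71 probe sets of 51 genes. The genes Clspn, Ticrr, Pif1, Tyms, Esco2 and Cdca7 were added by name, with 12 probe sets of 6 genes. This gave 83 of the 22575 probe sets on the array, or 57 of 9607 genes. The members were proposed with earlier results of these arrays known, and which values led to the choice is not recorded. The 6 genes added by name follow no family rule, so their values are given below as a description without a test.

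RNA was measured on 12 Affymetrix MOE430B arrays, 3 biological replicates in each of 4 groups. All mice were on the B10 background, were 6 to 8 weeks old, were untreated and carried a transgenic T cell receptor. TCR mice carried the receptor alone, and TCR:HEL mice also carried a transgene labelled HEL, whose promoter is not given in the sources used here. HEL is read here as the antigen that the receptor recognises, which the labels do not spell out. The TCR single-positive cells are labelled as positively selected, the TCR:HEL single-positive cells as under negative selection, and both double-positive groups as cells before selection. The titles were used for the groups, since the series design names the mice without HEL only as B10.

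A cell that copies its genome first loads the MCM helicase onto origins marked by the origin recognition complex. The GINS complex and other factors then turn the loaded helicase on, primase starts each new strand, and polymerases extend it on a sliding clamp loaded by the RFC complex. Stalled or broken forks are restarted or repaired by homologous recombination and by the Fanconi anaemia pathway, lesions are bypassed by polymerases such as Polh, and breaks can be sealed by end joining with Lig4. In the thymus, proliferation takes place mainly in immature cells up to the early double-positive stage, and most cells that are positively selected mature without dividing, so that replication genes are widely used there as marks of cycling cells. Many of these genes are transcribed in the S phase of the cell cycle through E2F transcription factors.

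Promoter windows of RefSeq genes on GRCm38.p6, from 250 bases before to 50 bases after each start, were found for 43 of the 57 member genes. They were searched on both strands for the E2F forms TTTCCCGC, TTTGGCGC, TTTCGCGC and TTTGCCGC, which can overlap each other. At least 1 form was found in 13 of the 43 member genes (30.2%) and in 704 of 27025 genes with a window (2.6%). Among the pattern genes that fell at the single-positive stage in TCR mice it was found in 4 of 9 with a window, namely Gins3, Mcm5, Mcm8 and Pold3. Among the pattern genes tested and not called there it was found in 4 of 21, namely Msh3, Orc1, Pola1 and Xrcc6. Among the pattern genes not tested it was found in 3 of 9 with a window, namely Mcm6, Pole2 and Pole4. The letters CCAAT were found in 27 of the 43 members (62.8%) against 41.1% of all genes, and the letters TTTGAA, known as the CHR element of cell-cycle genes, in 4 of 43 (9.3%) against 20.2%. The 250 bases before the start are shown for 4 genes, 5' to 3' on the gene's strand, with the E2F forms in capitals. Gins3 and Mcm5 fell and hold a form, Msh3 holds 2 overlapping forms and was not called, and Polh fell and holds none in this window.
Gins3 (chr8:95633309-95633558, plus strand): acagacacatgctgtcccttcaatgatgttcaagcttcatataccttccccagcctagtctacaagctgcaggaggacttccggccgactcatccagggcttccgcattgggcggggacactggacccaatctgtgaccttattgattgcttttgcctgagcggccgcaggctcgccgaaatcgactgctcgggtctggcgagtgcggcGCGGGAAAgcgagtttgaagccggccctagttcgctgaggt
Mcm5 (chr8:75109259-75109508, plus strand): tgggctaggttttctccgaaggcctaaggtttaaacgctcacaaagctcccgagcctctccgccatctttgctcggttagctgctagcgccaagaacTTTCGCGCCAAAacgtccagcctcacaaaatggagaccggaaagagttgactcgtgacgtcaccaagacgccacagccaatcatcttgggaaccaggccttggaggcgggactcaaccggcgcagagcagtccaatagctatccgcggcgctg
Msh3 (chr13:92355004-92355253, minus strand): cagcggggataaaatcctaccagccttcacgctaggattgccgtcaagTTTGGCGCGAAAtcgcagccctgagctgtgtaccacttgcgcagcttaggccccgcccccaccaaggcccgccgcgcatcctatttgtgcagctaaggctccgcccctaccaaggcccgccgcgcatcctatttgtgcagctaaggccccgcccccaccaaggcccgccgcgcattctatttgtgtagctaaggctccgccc
Polh (chr17:46202642-46202891, minus strand): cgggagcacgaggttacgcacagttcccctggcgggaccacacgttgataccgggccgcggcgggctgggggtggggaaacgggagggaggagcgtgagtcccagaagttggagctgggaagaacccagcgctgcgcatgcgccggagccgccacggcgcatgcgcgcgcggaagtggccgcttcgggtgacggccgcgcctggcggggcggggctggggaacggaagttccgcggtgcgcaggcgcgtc
In Gins3 the form lies on the opposite strand, and in Mcm5 and Msh3 a form on each strand shares its middle with the other. Pold3 and Mcm8 carry their form after the start, outside the stretch shown for the others. A match of letters describes the window and does not show that a factor binds there.

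The values are MAS5 signals, which the arrays' software gives on a linear scale, and each array had been scaled to the same trimmed mean. To be tested, a probe set had to exceed the median of its array on 3 or more arrays, which 13703 did. Of the members, 64 probe sets of 46 genes passed, 55 of 40 pattern genes and 9 of the 6 genes given by name. The 19 removed probe sets included 12 that were above the median on no array, and 11 genes were lost, namely Rad9b, Ercc2, Ercc6, Ercc6l, Exo1, Fancd2os, Fancl, Rad54l, Mcm6, Pole2 and Pole4. Of the 64 that passed, 7 were above the median on double-positive arrays only and 57 on arrays of both stages, so the counts below are over the probe sets that passed and not over all members. Some members match by name and not by role, such as Rad54l2, Poldip3 and the antisense gene Brip1os.

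None of the 9 genes listed for CD4 single-positive cells was among the array's annotated genes, so that label could not be checked with Cd4. Cd8a, the coreceptor gene that CD4 single-positive cells switch off, had signals of 6684 to 8034 in TCR and 5188 to 6118 in TCR:HEL double-positive cells, and of 516 to 731 and 810 to 1558 in the single-positive groups. The arrays were hybridized in 3 periods. Of the single-positive arrays, TCR replicate 2 alone fell in the middle period, with 5 of the 6 double-positive arrays. The ratio of 5' to 3' Gapdh signal, which falls when RNA is degraded, was 0.0379, 0.0856 and 0.107 on TCR single-positive, TCR:HEL single-positive and TCR double-positive replicate 1, against 0.195 to 0.453 on the others. The same ratio for actin ranked the arrays otherwise, with 0.12, 0.376 and 0.184 on these 3 arrays and 0.169 on TCR:HEL double-positive replicate 1. As alternatives, the 3 arrays of lowest Gapdh ratio were left out, and the period was left out or modelled. The median log2 signal of the 55 pattern probe sets was 7.43 to 7.50 on the TCR double-positive and 7.56 to 7.79 on the TCR:HEL double-positive arrays. It was 6.73 to 6.96 on the TCR single-positive arrays and 7.28 to 7.31 on the TCR:HEL single-positive arrays, while the median of all tested probe sets stayed within 7.13 and 7.39.

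**Figure D1:**
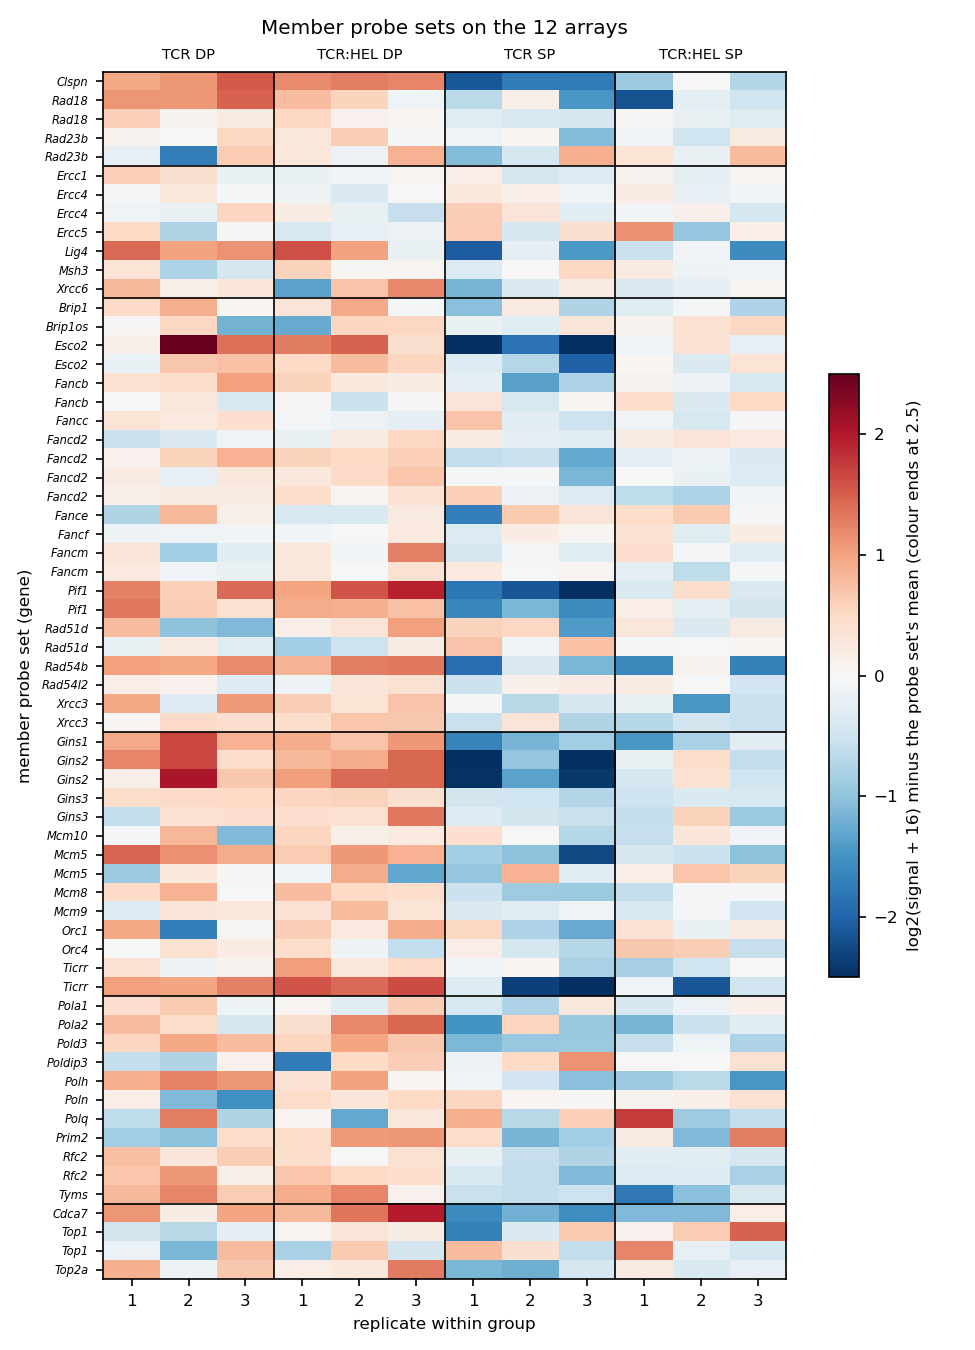
Each row is 1 of the 64 member probe sets that passed the filter, grouped by role between horizontal lines, and each column 1 of the 12 arrays (DP, double positive; SP, single positive). Colour is log2(signal + 16) minus the probe set's mean over the arrays, with the scale ending at 2.5 on either side; rows of Clspn, Esco2, Gins2, Pif1 and Ticrr hold the deepest blue on TCR SP arrays, and those of Ercc4 and Fancf change little.

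The first comparison asked how the members change between the double-positive and single-positive stages in TCR mice, where selection is positive. Genes of the helicase and of the polymerases made up most of the calls. Of 55 pattern probe sets, 16 of 14 genes fell (29.1%), 0 rose and 39 were not called, against 2.42% of all 13703 probe sets called lower, 1.12% called higher and 3.53% in either direction (limma, adjusted p under 0.05). The median log2 fold change of the 55 was -0.47, against 0.05 over all probe sets. At an unadjusted p under 0.05 there were 21 of 55, against 14% of all. Of the 55, 17 had single-positive signals below all double-positive signals, against 8.81% of all. Of the 16, 2 (Gins1 and Rad54b) had passed the filter through double-positive arrays only and 14 had not. In all 16 the single-positive signals lay below the double-positive signals without overlap. In these bulk samples a smaller share of dividing cells and less RNA per cell cannot be told apart.

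Among genes of origin licensing and the helicase, 6 of 12 probe sets fell, with a median log2 fold change of -0.78. This list also holds the paralogues Mcm8 and Mcm9, which were placed there by name and not by role, and Mcm8 is among the 6. Gins2 encodes a subunit of the GINS complex. Its signals were 1595, 2193 and 934 in TCR double-positive cells and 90.7, 341 and 103 in TCR single-positive cells. The groups did not overlap, and the log2 fold change was -3.18 ± 0.44 (SE, n = 3 arrays each, limma adjusted p = 0.000566). A second Gins2 probe set changed by -3.02 ± 0.44 (adjusted p = 0.000762). Mcm5, a subunit of the MCM helicase, had 14245, 11469 and 9859 against 2844, 2532 and 1070. Single-positive replicate 3 was the lowest, and the change was -2.56 ± 0.33 (adjusted p = 0.000324). A second, dim Mcm5 probe set, with signals of 11.8 to 84.0 on the TCR arrays of this comparison, had 0.09 ± 0.63 and was not called. Gins1 had 119, 205 and 111 against 6.06, 15.3 and 22.4, a change of -2.39 ± 0.42. It passed the filter through double-positive arrays only, with single-positive signals below the array medians, so that it had to differ to be tested, and its adjusted p is given from the fit without the filter (0.00471). Gins3 fell less, from 651, 674 and 683 to 340, 331 and 282, by -1.04 ± 0.22 (adjusted p = 0.0138), and its other probe set, at -0.50 ± 0.41, was not called. The helicase paralogue gene Mcm8, named after its values were seen, changed by -1.23 ± 0.29. Mcm9, Mcm10, Orc1 and Orc4 were not called.

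Of the polymerase, primase and clamp-loading probe sets, 4 of 10 fell, with a median of -0.76. Pold3, a subunit of the lagging-strand polymerase delta, had signals of 927, 1260 and 1091 in double-positive and of 282, 321 and 326 in single-positive cells. These replicates were close together, and the log2 fold change was -1.76 ± 0.25 (adjusted p = 0.000712). Polh, the polymerase that copies past ultraviolet damage and takes part in mutation of antibody genes in B cells, had 1114, 1418 and 1278 against 560, 418 and 275, a change of -1.62 ± 0.32 (adjusted p = 0.0095). Rfc2, a clamp-loader subunit, fell on both of its probe sets, with changes of -1.34 and -1.06 (adjusted p = 0.0162 and 0.0294). The primase subunit gene Prim2 had -0.03 ± 0.58, with overlapping signals of 34.9, 29.4 and 110 against 112, 25.4 and 35.2. Poln, a repair polymerase, had 1.03 ± 0.40 (adjusted p = 0.223), with 80.9, 24.3 and 14.1 against 110, 73.5 and 72.4. Its groups overlapped through double-positive replicate 1, without which it was called higher.

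For homologous recombination and the Fanconi anaemia pathway, 3 of 19 probe sets fell and the median was -0.14. Rad54b, a recombination motor protein, had 128, 121 and 143 in double-positive and 2.87, 38.7 and 16.1 in single-positive cells, a change of -2.19 ± 0.50. It also passed the filter through double-positive arrays only, and had an adjusted p of 0.0374 in the fit without the filter. Fancb, a subunit of the Fanconi core complex, had 175, 182 and 284 against 109, 41.3 and 70.0, a change of -1.40 ± 0.32 (adjusted p = 0.0214). Its other probe set had 0.03 ± 0.34. Fancd2, which the core complex marks with ubiquitin and which is named here after its values were seen, fell on 1 of 4 probe sets, with a change of -1.33 ± 0.28. Other genes of the list did not pass. Fancc had -0.37 ± 0.30 and Rad54l2 -0.06 ± 0.29.

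In the checkpoint and damage-tolerance list 1 of 4 probe sets fell. Rad18, the ubiquitin ligase that recruits bypass polymerases to stalled forks, had 752, 737 and 971 against 207, 378 and 115, a change of -1.88 ± 0.47 (adjusted p = 0.0401). The second Rad18 probe set had -0.67 ± 0.26 (adjusted p = 0.221), also without overlap between the groups. Rad23b, which recognises lesions for nucleotide excision repair, had -0.59 ± 0.33, and 0.22 ± 0.58 on its other probe set, neither called.

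Of 7 probe sets of excision, mismatch and end-joining repair, 1 fell and the median was 0.05. This was Lig4, the ligase of non-homologous end joining, which also seals the breaks made during T cell receptor gene rearrangement. Its signals were 2058, 1550 and 1669 in double-positive and 169, 653 and 271 in single-positive cells, a change of -2.42 ± 0.50 (adjusted p = 0.0124). The excision genes Ercc1 and Ercc4 had -0.47 ± 0.27 and 0.05 ± 0.24, and the mismatch gene Msh3 0.35 ± 0.34, none of them called. Ercc4 lay at 390, 487 and 396 against 490, 456 and 379, so the stages overlapped. Top2a, the topoisomerase that untangles replicated chromosomes, had 402, 192 and 345 against 86.2, 81.1 and 150, a change of -1.42 ± 0.37 (adjusted p = 0.0446). Top1, which relaxes supercoils in all cells, had 0.00 ± 0.47, with single-positive signals of 44.2, 136 and 292.

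**Figure D2:**
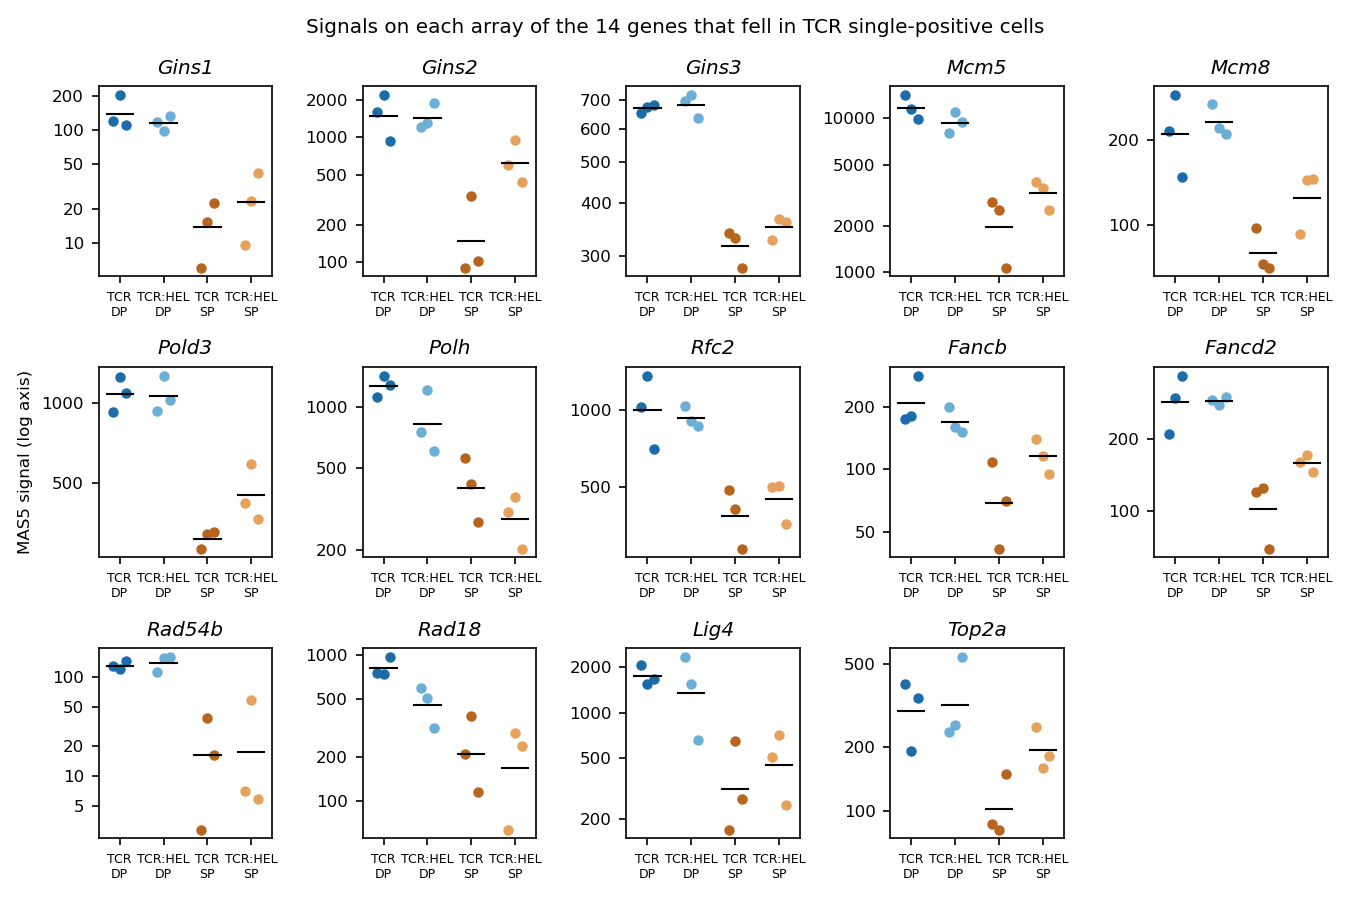
Points are MAS5 signals on single arrays (log axis, range set for each gene) of the 14 pattern genes that fell in TCR single-positive (SP) against double-positive (DP) cells, with replicates 1 to 3 from left to right, and bars are means of log2(signal + 16) turned back to signal. The brown TCR SP points lie below the dark blue TCR DP points in all panels, and for Gins2 the TCR:HEL SP points, at 438 to 943, lie above the TCR SP points at 90.7 to 341.

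With no filter on low values 14 of 71 pattern probe sets were called lower, against 1.24% of all. Gins1, Gins2 and Pold3, of 12 named genes called, were called under every alternative that held them. The count called lower was 6 without TCR single-positive replicate 3 (1.43% of all probe sets), 10 without TCR double-positive replicate 1 (1.71%) or 3 (1.55%), 8 without the 3 arrays of lowest Gapdh ratio (1.46%) and 8 when the fit held the hybridization period (1.5%). Within the middle period, where 1 single-positive array met 3 double-positive arrays, the median of the 55 was -0.37 against 0.05 over all probe sets.

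The same stages were then compared in TCR:HEL mice, where single-positive cells carry the label of negative selection. Fewer members passed, and again only lower. Of the 55 pattern probe sets 6 fell (10.9%), 0 rose and 49 were not called, against 1.1% of all probe sets called lower, 0.876% called higher and 1.98% in either direction. At an unadjusted p under 0.05 there were 19 of 55, against 12.4% of all, and 22 of 55 were lower without overlap, against 8.87%. The median was -0.46, against 0.03 over all probe sets. The 6 were Gins1, Gins3, Mcm5, Pold3, Polh and Rad54b, 1 probe set each, and their groups did not overlap. Gins1 and Rad54b had passed the filter through double-positive arrays only, which leaves 4 called probe sets that had not.

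Mcm5 had signals of 7983, 10916 and 9401 in TCR:HEL double-positive and of 3832, 3550 and 2542 in single-positive cells, a log2 fold change of -1.52 ± 0.33 (SE, n = 3, limma adjusted p = 0.0263). Gins1 had 117, 98.7 and 132 against 9.55, 23.7 and 42.0, a change of -1.75 ± 0.42, and was not called without the filter (adjusted p = 0.052). Gins3 had 698, 721 and 634 against 328, 368 and 362, a change of -0.93 ± 0.22 (adjusted p = 0.0414). These probe sets were lower on each of the single-positive arrays, while the second probe sets of Mcm5 (0.61 ± 0.63) and Gins3 (-1.03 ± 0.41) overlapped between the stages and were not called. Pold3 had 934, 1272 and 1028 against 419, 588 and 366, a change of -1.22 ± 0.25 (adjusted p = 0.0184). Polh had 756, 1202 and 607 against 305, 362 and 203, a change of -1.49 ± 0.32 (adjusted p = 0.0257). Rad54b had 111, 154 and 160 against 7.02, 59.0 and 5.85, a change of -2.21 ± 0.50 (adjusted p = 0.0488 without the filter). Single-positive replicate 2 stood above the other Rad54b values and still below every double-positive array.

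Gins2 was not called in TCR:HEL mice. Its signals were 1220, 1299 and 1870 against 600, 943 and 438, without overlap, and the change was -1.17 ± 0.44 (adjusted p = 0.246). Lig4 had 2350, 1544 and 664 against 511, 714 and 245, so that double-positive replicate 3 lay below single-positive replicate 2, and the change was -1.55 ± 0.50 (adjusted p = 0.158). Rad18 had 590, 506 and 317 against 63.1, 291 and 237, with -1.37 ± 0.47 (adjusted p = 0.195). Top2a had -0.68 ± 0.37 and Fancb -0.49 ± 0.32, neither called.

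The TCR and TCR:HEL stage comparisons take their group means from different arrays. The residual variance of each probe set was estimated from the arrays of both kinds of mice together, so the calls are not independent. All 6 probe sets that fell in TCR:HEL mice also fell in TCR mice, which was 37.5% of the 16 that fell there. Over all probe sets, 116 fell in both, which was 35% of the 331 lower in TCR mice and 76.8% of the 151 lower in TCR:HEL mice. All 16 had negative fold changes in TCR:HEL mice, from -2.21 to -0.49, as had 325 of the 331. A call in 1 kind of mouse and not in the other does not show that the changes differ, and their difference is tested below.

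**Figure D3:**
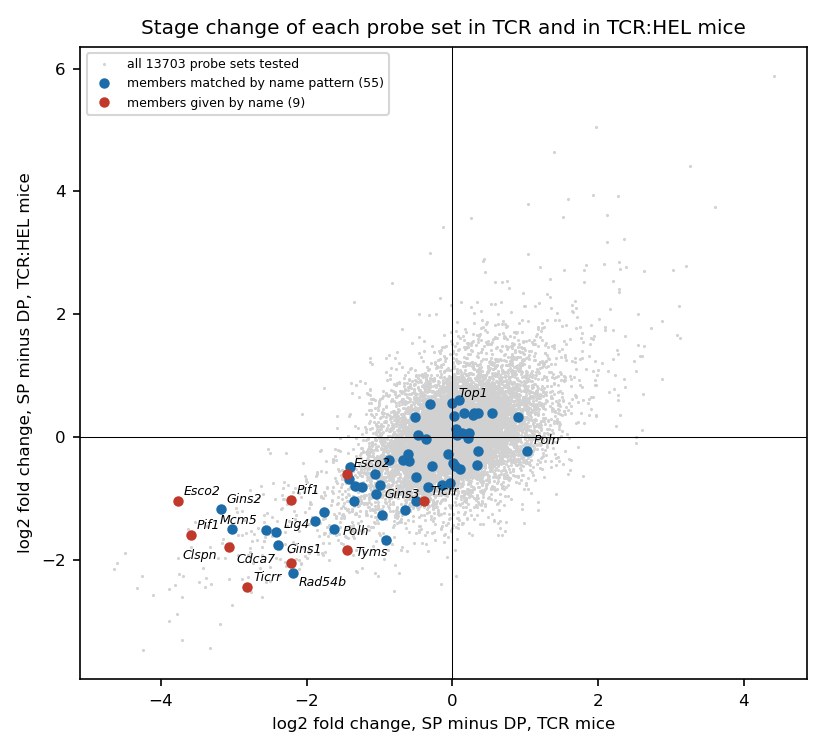
Each point is a probe set, placed by its log2 fold change from double-positive (DP) to single-positive (SP) cells in TCR mice (horizontal axis) and TCR:HEL mice (vertical axis), grey for all 13703 tested, blue for the 55 pattern members and red for the 9 probe sets of genes given by name. The members reach further to the lower left than to the upper right, with Gins2 at -3.18 and -1.17 and Rad54b at -2.19 and -2.21.

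The TCR:HEL count changed when single arrays were left out, as did the share of all probe sets called lower. It was 0 without TCR:HEL single-positive replicate 1 (0.715% of all) or double-positive replicate 2 (0.416%), and 1 to 3 without any other TCR:HEL array (0.584% to 1.0%) or without TCR double-positive replicates 1 or 3 (0.978% and 0.934%). It was 0 without the 3 arrays of lowest Gapdh ratio (0.788%) and when the fit held the hybridization period (0.781%). Over all 71 pattern probe sets, unfiltered, it was 4, against 0.586% of all. Within the last period, where 2 single-positive arrays met 1 double-positive array, the median of the 55 was -0.62 against 0.00 over all probe sets.

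Single-positive cells of the 2 kinds of mice were then set against each other, as cells under negative and under positive selection. In the main fit, which held no block for the replicate number, no pattern probe set was called, against 0.219% of all probe sets. At an unadjusted p under 0.05 there were 5 of 55, against 7.19% of all, and the median log2 fold change was 0.16 against 0.01. Groups without overlap were 6 higher and 1 lower, against 5.74% and 4.89% of all probe sets.

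The smallest p-values were those of Gins2. Its signals of 600, 943 and 438 in TCR:HEL single-positive cells lay above the 90.7, 341 and 103 of TCR single-positive cells. The log2 fold change was 1.96 ± 0.44 (SE, n = 3, limma adjusted p = 0.111), and 1.88 ± 0.44 on the second probe set (adjusted p = 0.133). Same-numbered single-positive arrays of both kinds of mice deviated together. An alternative fit held the replicate number as a block over all 12 arrays. There both Gins2 probe sets were called higher (limma adjusted p = 0.0331 and 0.0154). This block was shared with the double-positive arrays, whose same-numbered arrays correlated at -0.077, 0.124 and -0.091. Pairs of single-positive arrays alone were not fitted. TCR single-positive replicate 2, at 341, fell in neither the first nor the last hybridization period. Within the first, with 1 array on each side, the first probe set differed by 2.53. Within the last, with 2 arrays against 1, it differed by 2.47. Over all alternatives its fold change ran from 1.64 to 2.51 and its adjusted p from 0.0158, without TCR single-positive replicate 2, to 0.703. Without TCR double-positive replicate 2 the second probe set was called alone.

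Mcm5 had 3832, 3550 and 2542 in TCR:HEL against 2844, 2532 and 1070 in TCR single-positive cells, and the groups overlapped narrowly. Its log2 fold change was 0.72 ± 0.33 (adjusted p = 0.687). Top2a had 249, 159 and 181 against 86.2, 81.1 and 150, without overlap, with 0.82 ± 0.37 (adjusted p = 0.657). Top1 had 195, 285 and 524 against 44.2, 136 and 292, with 1.20 ± 0.47 (adjusted p = 0.563), and its other probe set had 0.01 ± 0.60. On none of these did the difference pass the adjusted threshold. Pold3 had 0.52 ± 0.25 and Fancb 0.63 ± 0.32, while Rad54b, at 0.06 ± 0.50, and Gins3, at 0.15 ± 0.22, had intervals of -1.01 to 1.14 and -0.32 to 0.61 around a difference near 0.

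Role lists had medians of 0.56 for the 12 licensing and helicase probe sets, 0.08 for the 10 of polymerases and clamp loading, 0.16 for the 19 of recombination and the Fanconi pathway, 0.24 for the 4 of checkpoint and damage tolerance, -0.05 for the 7 of excision, mismatch and end joining and 0.82 for the 3 of topoisomerases. The median of the 55 was 0.13 against -0.07 over all probe sets within the first period, with 1 array on each side, and 0.31 against 0.06 within the last, with 2 against 1.

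**Figure D4:**
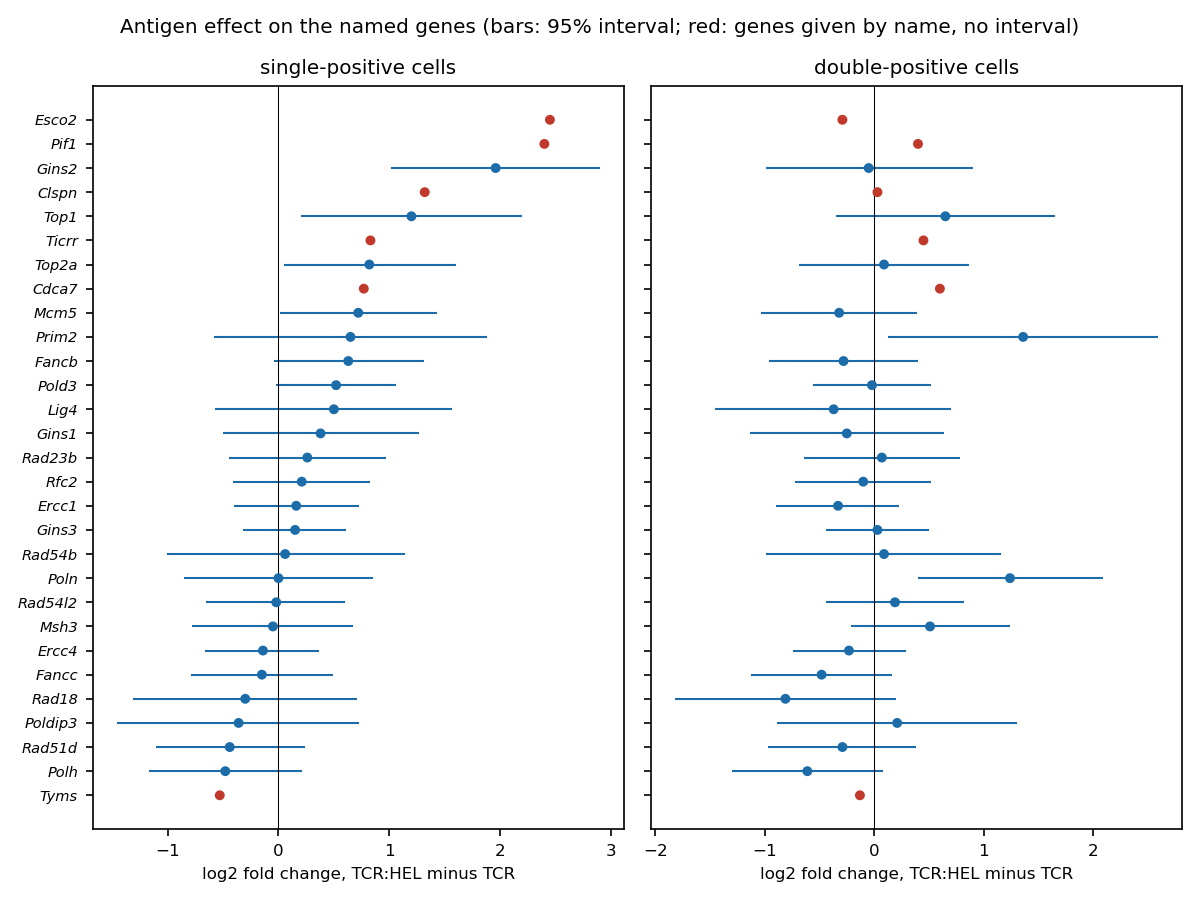
Points are log2 fold changes from TCR to TCR:HEL mice in single-positive (left) and double-positive cells (right) of 29 named member genes, 1 probe set each, with 95% intervals of the limma fit as bars for the pattern members (blue); genes given by name (red) have no interval. In single-positive cells Gins2 stands at 1.96 with an interval of 1.02 to 2.90, and in double-positive cells at -0.05.

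Before selection no member was called between TCR:HEL and TCR mice. In double-positive cells 0 of the 55 were called, and 0 of 13703 probe sets, or 0%, were called in all. At an unadjusted p under 0.05 there were 2 of 55, against 339 probe sets or 2.47% of all, and the median was 0.03. Groups without overlap were 2 lower and 4 higher, against 3.92% and 3.75%. The genes with an unadjusted p under 0.05 were Poln and Prim2. Poln had 103, 90.4 and 107 in TCR:HEL against 80.9, 24.3 and 14.1 in TCR double-positive cells, with 1.24 ± 0.40 (limma adjusted p = 1.0). Prim2 had 112, 177 and 181 against 34.9, 29.4 and 110, with 1.36 ± 0.58 (adjusted p = 1.0). Both are dim probe sets whose TCR double-positive replicates were far apart. Within the middle period, with 2 arrays against 3, the median of the 55 was 0.01, as over all probe sets.

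The difference between the antigen effects of the single-positive and double-positive stages equals the difference between the TCR:HEL and TCR stage changes. It was called for 0 of the 55 and for 0.0073% of all probe sets. At an unadjusted p under 0.05 there were 4 of 55, against 4.44% of all, and they included both probe sets of Gins2, at 2.01 ± 0.63 (limma adjusted p = 0.938) and 1.53 ± 0.62 (adjusted p = 0.998). Mcm5 had 1.04 ± 0.47 and Poln -1.25 ± 0.56, both with an adjusted p of 0.998. Pold3 had 0.54, with an interval of -0.23 to 1.30, and Rad54b -0.03, with an interval of -1.55 to 1.5.

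The 6 genes given by name were added with earlier results of these arrays known. They are described without a test, and groups that lie apart may reflect that choice. Clspn, the mediator that carries the replication-stress signal to the checkpoint kinase, had signals of 1090, 1200 and 1626 in TCR and 1265, 1370 and 1315 in TCR:HEL double-positive cells. In single-positive cells it had 115, 152 and 154 in TCR and 285, 552 and 325 in TCR:HEL mice. The single-positive groups lay below the double-positive groups and apart from each other. Ticrr, which helps to turn on the loaded helicase, had means of 601 ± 62.2 and 824 ± 66.8 (SD, n = 3) in TCR and TCR:HEL double-positive cells and of 96.4 ± 102 and 166 ± 106 in the single-positive cells. Its other tested probe set moved by -0.38 and -1.04 on the log2 scale between stages.

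Pif1, a helicase that unwinds DNA structures in the path of forks, had 740, 463 and 829 in TCR and 610, 926 and 1173 in TCR:HEL double-positive cells. It had 73.9, 56.0 and 10.9 in TCR against 229, 411 and 230 in TCR:HEL single-positive cells. Esco2, an acetyltransferase that makes cohesin hold sister chromatids together, had 108, 642 and 279 in TCR and 264, 300 and 134 in TCR:HEL double-positive cells. Its single-positive signals were 0.973, 15.8 and 1.53 in TCR and 90.0, 130 and 83.0 in TCR:HEL mice. On these probe sets every TCR single-positive array was lower than every other array. On the second Esco2 probe set the single-positive groups overlapped, with 41.8, 27.9 and 1.82 in TCR against 58.4, 40.2 and 75.6 in TCR:HEL mice. Tyms, the enzyme that makes thymidylate for DNA synthesis, had means of 180 ± 42.8 and 168 ± 65.8 in the double-positive and of 55.1 ± 1.78 and 37.2 ± 24.4 in the single-positive groups of TCR and TCR:HEL mice. Cdca7, a chromatin protein of cycling cells, had 124 ± 43.0 and 201 ± 85.6 in the double-positive and 13.4 ± 4.61 and 38.5 ± 30.4 in the single-positive groups. Tyms thus lay in the order opposite to Clspn between the single-positive groups, with overlap. The probe sets of Tyms and Cdca7 and the second of Esco2 passed the filter through double-positive arrays only. Their single-positive signals lay below the array medians, so that they had to differ between the stages to pass.

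Probe sets of 1 gene did not always move together. Of 13 pattern genes with several tested probe sets, 2 were called lower on all of them in TCR mice (Gins2 and Rfc2), 5 on some and 6 on none, and in 5 the signs differed. The called probe sets of Gins1, Mcm5, Pold3, Polh and Rfc2 carry an _x_at suffix. Affymetrix gives it to probe sets that can share sequence with other transcripts. In TCR:HEL mice Gins1, Mcm5, Pold3 and Polh were called on such probe sets, and Gins3 and Rad54b on others.

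Genes of the same pathways outside the members were counted from lists chosen with earlier results known. The genes named from these lists were those of smallest p, up to 4 per comparison. Of 13 tested genes of a list of 47 other replication genes, 4 fell and 0 rose in TCR mice, and 4 fell and 0 rose in TCR:HEL mice. Over all probe sets 2.42% fell and 1.12% rose in TCR mice, and 1.1% fell and 0.876% rose in TCR:HEL mice. Dscc1, part of an alternative clamp loader, went from 568 ± 82.3 to 86.7 ± 39.8 in TCR mice (SD, n = 3), by -2.58 ± 0.33 (SE, limma adjusted p = 0.000309). Rnaseh2b, a subunit of the enzyme that removes ribonucleotides from DNA, changed by -2.75 ± 0.36, the maintenance DNA methyltransferase gene Dnmt1 by -2.02 ± 0.37 and the clamp unloader gene Atad5 by -1.76 ± 0.38. In TCR:HEL mice Dscc1, Rnaseh2b and Dnmt1 fell again, with Slbp, whose product binds histone messages, at -1.66 ± 0.30. None of the 13 was called between the single-positive groups, where the median was 0.36.

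Of 48 tested genes among 101 other repair and checkpoint genes, 7 fell and 1 rose in TCR mice, and 2 fell and 1 rose in TCR:HEL mice. The shares of all probe sets were 2.42% lower and 1.12% higher in TCR mice, and 1.1% lower and 0.876% higher in TCR:HEL mice. The gene that rose in both was Parp3, a polymerase of ADP-ribose that acts at double-strand breaks, from 365 ± 100 to 1397 ± 333 in TCR mice, by 1.90 ± 0.32 (limma adjusted p = 0.00233). In TCR:HEL mice it rose by 1.61 ± 0.32 (adjusted p = 0.014). Mms22l and Tonsl, partners in the rescue of stalled forks, fell in both, with -1.60 ± 0.28 and -1.40 ± 0.30 in TCR mice and -1.31 ± 0.28 and -1.44 ± 0.30 in TCR:HEL mice. Hrob, which loads the Mcm8 and Mcm9 helicase, fell in TCR mice, by -1.27 ± 0.28. Between the single-positive groups none of the 48 was called and the median was -0.06. Of a list of 6 genes of antigen receptor rearrangement, with no members in it, only Nhej1 was tested, with -1.06 ± 0.34 in TCR mice (limma adjusted p = 0.121). Nhej1 is also counted among the 48 genes above.

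Genes of mitosis and of cell type moved beside the members, and their part in the members' changes was not tested. Of 12 tested mitosis genes of 37, 6 fell in TCR and 3 in TCR:HEL mice, with medians of -1.77 and -1.41. Of all probe sets 2.42% and 1.1% were called lower there. The spindle-checkpoint gene Bub1b had means of 7431 and 350 in TCR and of 5964 and 1418 in TCR:HEL double-positive and single-positive cells. Between the single-positive groups 1 of the 12 rose, against 0.146% of all probe sets, and the median was 0.99. This was the centromere motor gene Cenpe, at 2.23 ± 0.40 (limma adjusted p = 0.0308). The signals of 4 tested markers of double-positive cells (Cd8a, Arpp21, Themis and Dgkeos), of 10 listed, were summed. The sum was 10483 to 13114 in TCR and 8101 to 11995 in TCR:HEL double-positive cells, and 1635 to 3420 and 2833 to 5097 in the single-positive groups. Cd8a and Dgkeos were called lower in both kinds of mice and Arpp21 in TCR mice only. Themis was called in neither, at -0.81 ± 0.48 in TCR and -0.06 ± 0.48 in TCR:HEL mice (limma adjusted p = 0.513 and 0.976). The sum of 2 tested of 9 listed markers of epithelium and stroma (Epcam and Dcn) with Foxn1 and Pdgfra was 588 to 2142 and 1249 to 3056 in the double-positive groups and 2108 to 3805 and 1149 to 1662 in the single-positive groups of TCR and TCR:HEL mice. Of these Dcn rose in TCR mice, from 38.1 ± 10.1 to 117 ± 23.4 (adjusted p = 0.0308). Sums of B cell markers (Pax5, Ebf1 and Fcmr) were 326 to 382, 545 to 596, 209 to 360 and 336 to 508 in TCR and TCR:HEL double-positive and TCR and TCR:HEL single-positive cells, with 0 of 3 called in any comparison. Of the 3, only Fcmr lay apart between the double-positive groups, at 113 to 151 in TCR and 263 to 379 in TCR:HEL mice. Pax5 (139 to 204 and 161 to 220) and Ebf1 (32.9 to 73.6 and 50.5 to 61.9) overlapped there.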

How the data were processed

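RNA of sorted thymocytes was hybridized to 12 arrays. The deposited values are intensity values on a linear scale, MAS5 signals per the submitters' processing notes, which give no version or settings. RNA came from 100000 to 1000000 cells and was amplified, per the labels' protocols. Detection calls were not used here. From the deposited signals, log2(signal + 16) was fitted with limma 3.58.1 in R 4.3.3 as 4 group means over 12 arrays, with empirical Bayes moderation with a trend on 8 residual and 7.01 prior degrees of freedom. Two-sided p-values were adjusted with the Benjamini-Hochberg method within each of 5 contrasts over 13703 probe sets. Fold changes on this scale understate changes of dim probe sets. The 64 control probe sets were left out. Symbols came from the platform annotation, where 9319 tested probe sets had 1 symbol, 149 several and 4235 none. All 57 member symbols matched RefSeq genes of GRCm38.p6 by gene ID.

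The members and lists were chosen with earlier results of these data known. Named were the 4 genes of highest mean signal in each of 6 role lists, the 10 called genes of largest fold change without overlap in each comparison, the genes given by name, where nothing was called the 5 of smallest p, and of other lists up to 4 per comparison. A gene with several probe sets was taken at the one with the highest mean. Arrays were placed in periods by gaps of over 35 days, or 30 days as an alternative. Same-numbered single-positive arrays of both kinds of mice deviated together (r = 0.159, 0.204 and 0.188 across probe sets). Arrays of unlike number were not set against each other as a baseline. The main fit held no block, and pairing entered only as an alternative fit with the replicate number as a block over all 12 arrays. Single-positive replicates 1 and 3 of both kinds of mice shared a hybridization period and replicates 2 did not. With 3 arrays per group the number of arrays limits precision. On data simulated for the single-positive comparison over 13703 probe sets, 64% of changes of 2 and 16% of changes of 1 on the log2 scale were recovered.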

Additional observations from a re-analysis of the deposited data

How the results depend on the processing

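The counts of members called were recomputed under other pseudocounts, filters, scalings, blocks and sets of arrays, and no called fold change turned its direction in any of them. In TCR mice 16 pattern probe sets were called lower. Of all probe sets 2.42% were. The count was 8 with a block for the hybridization period (1.5% of all), 6 with periods parted at 30 days (1.17%), 9 with only the 2 groups compared (1.52%) and 8 without the 3 lowest Gapdh ratios (1.46%), and 6 to 16 with 1 array left out. In TCR:HEL mice 6 were called lower, and 1.1% of all. The count was 0 with the period as a block at either gap (0.781% and 0.876%), 1 without the first period (0.898%), 0 without the 3 lowest Gapdh ratios (0.788%) and 0 to 7 with 1 array left out. Between the single-positive groups the count was 0 to 1 with 1 array left out. For the antigen effect in double-positive cells and for the difference of the effects it was 0 in every setting. The cause of these changes was not tested.

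With the replicate block, the count between the single-positive groups was 2, both of Gins2 and both higher, against 0.241% of all probe sets called higher with that block. In TCR:HEL mice it was 10, against 1.58% of all called lower with it, with probe sets of Gins2, Rfc2 and Xrcc3 added to the 6. The stage groups were not read as pairs. Their same-numbered arrays correlated at 0.048, 0.291 and 0.005 in TCR and 0.092, 0.105 and 0.202 in TCR:HEL mice. The block changed no other count of calls by over 1.5 times. Signal over background limits the dim probe sets, whose replicates spread most.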

Other observations

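Genes outside the naming rule are given here as values and were picked after these were seen. Both probe sets of Xrcc3, a gene of homologous recombination, were lower in TCR:HEL single-positive than double-positive cells without overlap, by -1.27 ± 0.39 (limma adjusted p = 0.134) and -1.18 ± 0.30 (adjusted p = 0.0546). In TCR mice they had -0.96 ± 0.39 and -0.65 ± 0.30. The polymerase alpha subunit gene Pola2 had signals of 93.0, 174 and 207 in TCR:HEL double-positive and of 21.0, 40.6 and 53.0 in single-positive cells, with -1.67 ± 0.51 (adjusted p = 0.132), and its TCR groups overlapped.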
